A study of Homo sapiens with 2 samples.

Results

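Broad open regions were examined in the chromatin of CAL27, a human line of tongue squamous carcinoma cells. They were chosen by their width, as the accessible regions at least 1500 bp long in either of 2 ATAC-seq peak lists, on chromosomes 1 to 22 and X and outside pericentromeric intervals of chromosomes 1, 5, 16 and 17. The list of the lactate library held 393 of them among 122076 regions (0.322%), and the list of the untreated library 453 among 97863 (0.463%). Merging those that overlapped between the lists gave 654 broad regions among 130156 merged regions. ATAC-seq reads accessibility through Tn5, a transposase that inserts sequencing adapters where DNA is open. The groups were CAL27 cells given 10 mM lactate for 24 h, with 1 library of 15401276 tags, and CAL27 cells left untreated, with 1 library of 18248413 tags. With 1 library per group no difference between the groups has a replicate check, no test was made, and each difference compares these 2 libraries. Intervals are exact at the 95% level and cover counting error only, since PCR copies and summits picked for their height are not independent draws.

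Most accessible sites are short gaps between nucleosomes, the histone spools that carry the DNA. Long stretches of open DNA are known from strongly transcribed promoters, from pairs of promoters that point away from each other, and from clustered enhancers, where several nucleosomes are displaced or unstable at once. Genes of small nuclear RNAs (snRNAs), the RNA parts of the machinery that splices messenger RNA, are among the most heavily transcribed short genes of a human cell.

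The starts of several genes lay inside broad regions, and the 250 bases before 7 of them are given to show the kind of DNA that was open. They are starts in RefSeq's promoter sequences that lay in broad regions picked for width, summits or height. The widest regions held SIRT4, ABTB2 and GSDME, and one with 7 untreated summits held NFE2L2. PARP2 lay in the broad region with the tallest lactate summit. GMCL1 and PRPF38B lay in regions near the top and bottom of the height comparison. All sequences run 5′ to 3′ on the strand of the gene, come from RefSeq's GRCh38.p14 assembly, the build named hg38 in the study, and have GC boxes (GGGCGG on either strand, the core that SP and KLF factors bind) in capitals. The coordinates are chr12:120291939-120292188 (plus strand) for SIRT4, chr11:34358011-34358260 (minus) for ABTB2, chr7:24757465-24757714 (minus) for GSDME and chr2:177264728-177264977 (minus) for NFE2L2. Those of the other 3 are chr14:20343385-20343634 (plus) for PARP2, chr2:69829410-69829659 (plus) for GMCL1 and chr1:108692060-108692309 (plus) for PRPF38B.
SIRT4: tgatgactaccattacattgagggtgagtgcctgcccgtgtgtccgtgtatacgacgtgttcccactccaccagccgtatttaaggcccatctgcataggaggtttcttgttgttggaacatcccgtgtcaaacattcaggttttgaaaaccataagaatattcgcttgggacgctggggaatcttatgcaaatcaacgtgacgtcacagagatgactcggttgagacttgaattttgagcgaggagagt
ABTB2: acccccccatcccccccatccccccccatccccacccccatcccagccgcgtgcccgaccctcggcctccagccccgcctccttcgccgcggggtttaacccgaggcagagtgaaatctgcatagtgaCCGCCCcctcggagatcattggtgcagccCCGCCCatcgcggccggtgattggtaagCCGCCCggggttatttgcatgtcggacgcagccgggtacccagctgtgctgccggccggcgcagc
GSDME: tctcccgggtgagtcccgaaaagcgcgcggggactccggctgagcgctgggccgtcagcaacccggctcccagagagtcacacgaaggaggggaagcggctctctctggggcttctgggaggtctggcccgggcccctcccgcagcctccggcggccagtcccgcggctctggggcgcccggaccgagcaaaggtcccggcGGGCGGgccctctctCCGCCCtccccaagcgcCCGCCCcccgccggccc
NFE2L2: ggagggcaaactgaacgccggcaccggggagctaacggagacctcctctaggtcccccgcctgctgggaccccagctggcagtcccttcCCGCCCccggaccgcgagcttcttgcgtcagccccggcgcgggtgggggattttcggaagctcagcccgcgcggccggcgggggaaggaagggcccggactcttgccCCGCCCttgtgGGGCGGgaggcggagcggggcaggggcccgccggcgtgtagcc
PARP2: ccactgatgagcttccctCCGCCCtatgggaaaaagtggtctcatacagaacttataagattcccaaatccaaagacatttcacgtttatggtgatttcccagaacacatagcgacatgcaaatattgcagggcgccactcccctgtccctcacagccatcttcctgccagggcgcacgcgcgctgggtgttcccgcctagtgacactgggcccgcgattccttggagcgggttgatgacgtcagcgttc
GMCL1: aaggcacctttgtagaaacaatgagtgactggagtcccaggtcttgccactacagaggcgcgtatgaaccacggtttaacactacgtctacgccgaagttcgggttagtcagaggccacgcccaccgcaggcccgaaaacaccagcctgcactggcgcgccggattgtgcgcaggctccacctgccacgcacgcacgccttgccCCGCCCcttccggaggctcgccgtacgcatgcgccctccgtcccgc
PRPF38B: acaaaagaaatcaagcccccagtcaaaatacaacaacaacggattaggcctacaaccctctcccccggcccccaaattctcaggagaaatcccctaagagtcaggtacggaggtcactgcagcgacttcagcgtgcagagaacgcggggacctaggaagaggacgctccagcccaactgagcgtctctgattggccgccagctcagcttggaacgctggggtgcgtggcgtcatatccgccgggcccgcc
ABTB2, GSDME and NFE2L2 each had 3 GC boxes in these bases and a G+C content of 70.4%, 76.4% and 74.8%. PARP2 and GMCL1 had 1 GC box each at 54.4% and 63.6% G+C, while SIRT4 and PRPF38B had 0 at 47.2% and 58.8%. The printed bases thus ran from GC-rich to AT-richer. SIRT4 and PARP2, the lowest in G+C of those printed, lie in regions that also hold genes of small RNAs. These are RNU4-1 and RNU4-2 beside SIRT4, and RPPH1 beside PARP2.

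Across all 654 broad regions, 616 listed promoters of 480 genes started inside one. The promoter table spans 250 bases before to 50 after each start. Their median G+C content was 67.3%, and 86.5% were rich in CpG (an observed-to-expected CpG ratio above 0.6). That share was 88.5% for starts in the next narrower regions (at least 1000 but under 1500 bp), 83.5% for starts in regions of 500 to 999 bp, and 48.9% over all 34961 listed promoters. CpG-rich starts were thus as frequent in narrower open regions as in broad ones. The GC box was found in 77.3% of the promoters in broad regions (73.8 to 80.5), in 73.5% of those in the next narrower regions, in 69.4% of those in regions of 500 to 999 bp, and in 45.0% of all.

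The other letter strings, also searched on both strands of these 300 bases, followed other orders. The ETS core CCGGAAG was found in 15.6% of promoters in broad regions, 19.2% in the next narrower regions, 21.5% in regions of 500 to 999 bp and 10.3% of all. The CCAAT box, which NFY binds, was in 35.2%, 38%, 37.1% and 34.6% of the same 4 sets. In the same order of sets, the TATA box (TATAAA) was found in 5.36%, 4.57%, 4.81% and 11.5%, so its share was low in narrower open regions too. The AP-1 site TGANTCA was in 6.33%, 5.03%, 6.55% and 7.68%, and the TEAD string GGAATG in 11.7%, 10.7%, 10.8% and 14.0%. The cyclic AMP response element TGACGTCA was in 2.44%, 3.70%, 3.59% and 1.85%. The NRF1 string was in 2.27%, 2.70%, 2.48% and 1.24%, the YY1 string in 0.974%, 1.93%, 1.95% and 0.852%, and the SRF string in at most 0.162% of any set. A TGACGTCA string lay among the printed bases of SIRT4 and PARP2. Such a match is a description of letters and does not show that a factor was bound.

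In width, the broad regions ranged from 1500 to 2673 bp in the lactate list and from 1500 to 2735 bp in the untreated list, with medians of 1641 bp with lactate and 1634 bp without. They covered 0.664 Mb in the lactate list (1.33% of the covered bases) and 0.767 Mb in the untreated list (1.81%). At least 2000 bp was reached by 23 lactate and 34 untreated regions. Width chose these regions, so it is given as a description. The cut at 1500 bp fell in a continuous range: 61 merged regions whose widest listed region was 1500 to 1524 bp had median summits of 75 tags in the lactate and 58 in the untreated library, and 65.6% lay at a gene start. The 89 merged regions from 1475 to under 1500 bp, just outside, had medians of 88 tags with lactate and 61 without, and 60.7% lay at a gene start.

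Each broad region held several summits, the local maxima of tag density. The lactate regions averaged 4.0 summits (2 to 7) and the untreated ones 4.06 (2 to 7), whereas the mean was 1.18 over the whole lactate list and 1.26 over the whole untreated list. Every broad region of both lists had at least 2 summits, a property of 14.7% of the lactate and 20.3% of the untreated list. Neighbouring summits lay a median of 381 bp apart in the lactate regions (quartiles 300 and 491) and 366.5 bp in the untreated regions (quartiles 299 and 478). The most frequent 25 bp class of spacing was 275 to 300 bp in both. Gaps under 200 bp, the length to which the authors' peak caller extended each tag, made up 2.37% in the lactate and 2.38% in the untreated broad regions.

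Fold enrichment is the authors' ratio of summit pileup to local background. No broad region was among the 1000 regions of highest fold enrichment in either list. Broad regions made up only 0.322% of the lactate and 0.463% of the untreated list, so few would fall among any 1000 regions. Their median fold was 7.82 in the lactate and 6.64 in the untreated library, against medians of 7.44 over the lactate list and 5.97 over the untreated list. The next narrower merged regions had higher medians than broad merged regions, 10.6 against 8.46 with lactate and 7.61 against 6.55 without. Summits of the broad regions were taller than those of the lists, at a median of 91 tags in the lactate and 67 in the untreated library, against 22 tags over the lactate and 20 over the untreated list. The background around broad regions was raised as well, at a median of 9.92 tags with lactate and 8.86 without, against 1.72 over the lactate and 2.2 over the untreated list. The peak caller took that background from up to 10000 bp around each summit, so a broad region adds to its own.

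All 654 broad regions overlapped a listed region of the other library. So did 5922 of the 5932 next narrower merged regions, and 86550 of all 130156 merged regions. Of the 654 broad regions, 192 (29.4%) were at least 1500 bp in both lists, 201 (30.7%) in the lactate list alone and 261 (39.9%) in the untreated list alone. The 192 shared ones were 48.9% of the lactate and 42.4% of the untreated broad regions. Where 1 list fell short of the width, the region there was either broken up or a single shorter one. Among the 261 that were broad in untreated cells alone, 140 appeared as several shorter regions in the lactate list and 121 as 1 shorter region, 47 of these at 1400 bp or more. Among the 201 that were broad with lactate alone, 96 were broken up in the untreated list and 105 were 1 shorter region, 38 of these at 1400 bp or more.

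**Figure D1:**
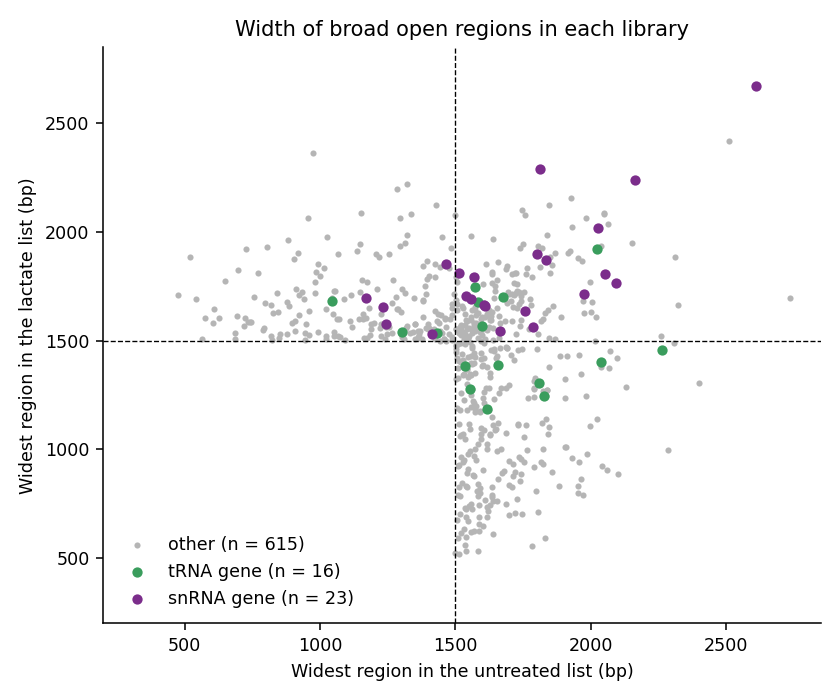
Width of the widest listed region of each of 654 broad open regions, in bp, in the lactate list (vertical) and the untreated list (horizontal), with 1 point per merged region and dashed lines at 1500 bp. Regions at snRNA genes (purple, 23) sit mostly in the upper right, where both lists pass the width, with 18 broad in both; those at tRNA genes (green, 16) are spread over the 3 fields that hold points.

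Breaking apart grew with width in both lists. Of the 393 lactate broad regions, 97 (24.7%, 20.5 to 29.3) overlapped at least 2 untreated regions, and of the 453 untreated broad regions, 148 (32.7%, 28.4 to 37.2) overlapped at least 2 lactate regions. In the class just below 1500 bp the shares were 18.1% of lactate and 20.5% of untreated regions. In regions of 1000 to 1249 bp they were 11.2% of lactate and 12.3% of untreated regions, and in regions of 600 to 799 bp 3.30% of lactate and 2.77% of untreated regions. At least 3 pieces were seen for 5 lactate and 13 untreated broad regions. The breaks were short. Their median length was 214 bp for 161 gaps in the lactate list and 184.5 bp for 102 gaps in the untreated list, and 146 of the lactate and 91 of the untreated gaps were at most 400 bp. A gap means that the signal there did not pass the caller's threshold in that library. The lactate library held fewer tags in total. In the 261 regions broad in untreated cells alone, however, the median highest summit was 92 tags with lactate and 63 without. The median background there was 8.74 tags with lactate and 8.12 without. The parts of depth and background in the breaks were not tested.

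**Figure D2:**
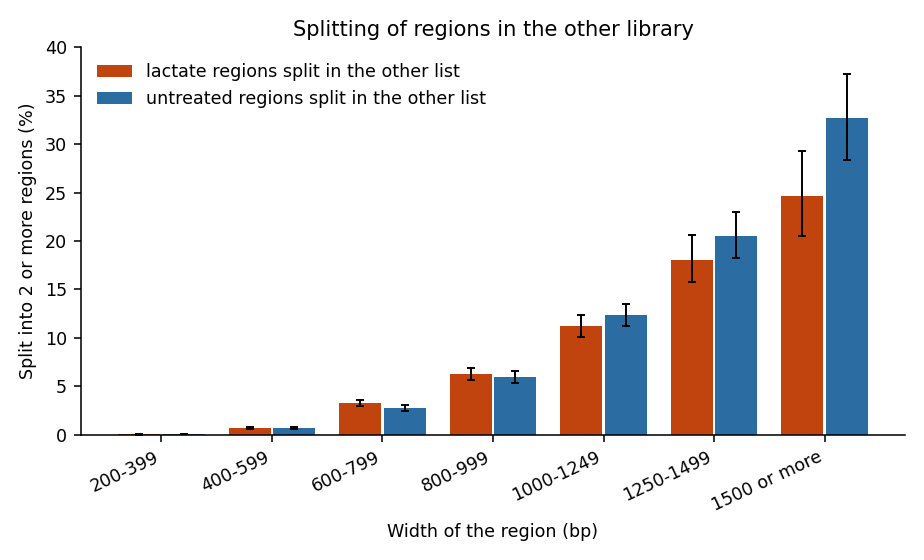
Share of regions that overlapped 2 or more regions of the other list (percent, vertical) by width of the region (bp, horizontal), for lactate regions (orange) and untreated regions (blue); bars start at 0 and whiskers are exact 95% binomial intervals. The share climbs with width in both lists, to 24.7% of lactate and 32.7% of untreated broad regions.

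Most summits inside broad regions had a counterpart in the other library. Of the 2423 lactate summits, 1704 (70.3%) had an untreated summit within 50 bp, and of the 2541 untreated summits 1704 (67.1%) were so matched. The next narrower merged regions had about the same shares, 72.1% of lactate and 67.8% of untreated summits. The tallest summit was not always the same one. In 383 broad regions (58.6%) the highest summits of both libraries lay within 50 bp of each other, and in 175 (26.8%) they lay over 300 bp apart. For the next narrower merged regions, with fewer summits to choose from, the share within 50 bp was 68.5% and that over 300 bp apart 15.2%.

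Summit heights were compared per total tags, as a description, since width and height rest on the same tags. The median highest summit was 92 tags with lactate and 62.5 tags without, or 5.97 with lactate and 3.43 without when divided by total tags in units of 1e6. The lactate value divided by the untreated value had a median of 1.74 (quartiles 1.5 and 2.06, range 0.972 to 4.07). All 73138 regions shared by the lists, leaving out single-summit regions close to the caller's minimum length, had a median ratio of 1.66, so the whole library was shifted on this scale. The ratio was above 1 in 652 of the 654 broad regions (99.7%), against 89.6% of all shared regions, and at least 1.5 in 488 (74.6%), against 61.0%. The next narrower merged regions were close to the broad ones, with 97.2% above 1, 70.3% at 1.5 or more and a median ratio of 1.75. A higher ratio than over all shared regions was thus not particular to broad regions. When heights were scaled to the summed pileup of shared regions instead, the median over broad regions became 0.993 and its direction turned. The sign of the difference therefore depends on the scaling, and whether total accessibility or the share of tags in open regions differed cannot be told apart.

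A relative ratio was therefore used, the ratio divided by the median ratio of shared regions of like summit height. Its median over broad regions was 0.906. It was at least 1.5 in 9 broad regions (1.38%), against 11.7% of all shared regions, and at most 1/1.5 in 58 (8.87%), against 12.1%. Tall regions carry less counting error than the rest, which narrows their spread, so these shares below the background are not evidence of a stable group. The next narrower merged regions stood at 3.93% for the upper and 11% for the lower bound. The counting interval of the relative ratio spanned 1 in 543 broad regions, lay above 1 in 21 and lay below 1 in 90. These intervals were not counted over all shared regions, so nothing particular to broad regions is read from them. The median relative ratio of the next narrower merged regions was also below 1, at 0.928. Broad regions at gene starts (374), in gene bodies (124) and outside genes (156) had median ratios of 1.74, 1.72 and 1.76 and median relative ratios of 0.915, 0.875 and 0.903. The median ratio was 1.74 where both lists were broad, 1.67 where the lactate list alone was and 1.80 where the untreated list alone was.

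**Figure D3:**
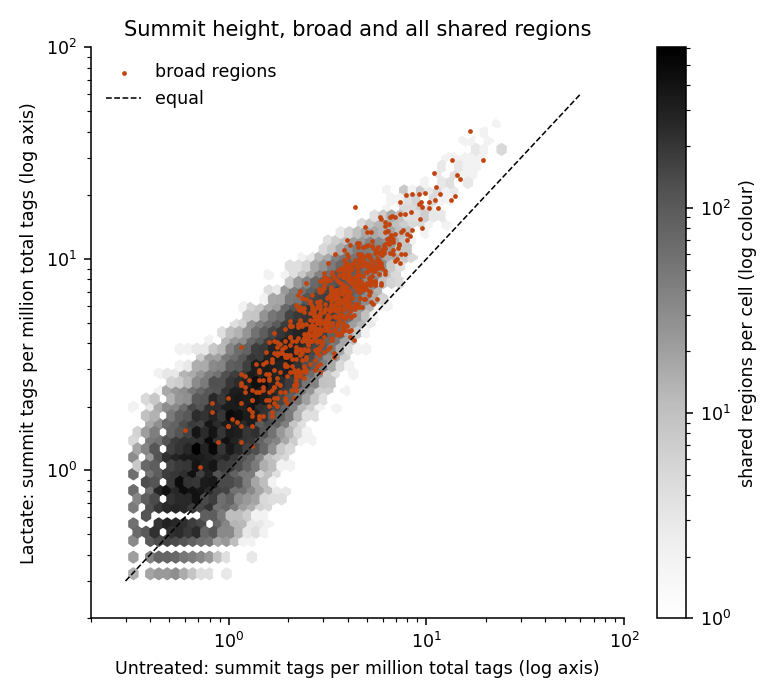
Highest summit per 1e6 total tags in the lactate library (vertical) and the untreated library (horizontal), both on log axes, for broad regions (orange points) and all shared regions (grey cells, darker where more regions fall), with a dashed line of equal height. Broad regions follow the band of all shared regions, with 652 of 654 above the line on this scale; scaled to the summed pileup of shared regions their median ratio is 0.993.

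The 5 broad regions of highest relative ratio lay at the starts or ends of genes. Of the 9 with a relative ratio of at least 1.5, however, 6 lay there, 1 in a gene body and 2 outside genes. Of all broad regions, 57.2% lay at a start, so the location is not particular to the top. The broad region at AKTIP (chr16:53502414-53503955), which encodes a partner of the kinase AKT, had a highest summit of 271 tags with lactate and 79 without, a ratio of 4.07 (3.15 to 5.29) and a relative ratio of 2.03. It lies 457 bp from an annotated end of the gene whose strand is not in the table used. At GMCL1 the heights were 59 tags with lactate and 21 without, a relative ratio of 1.84. At CEP350, a centrosome protein gene, they were 119 tags with lactate and 45 without, a relative ratio of 1.61. LDLRAD3 had 109 tags with lactate and 42 without and a relative ratio of 1.58. SERPINE2, which encodes a secreted inhibitor of serine proteases, had 24 tags with lactate and 11 without and a relative ratio of 1.64. For these 5 the relative ratio's interval lay above 1 except at SERPINE2, where it ran from 0.772 to 3.70. The 5 were picked for the highest relative ratios, which shifts these intervals upward, so they are no separate support. The GMCL1 region was 1509 bp wide with lactate and in 2 pieces of at most 688 bp without, whereas the AKTIP region was 1299 bp with lactate and 1542 bp without.

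At the other end, 5 regions had nearly equal heights per total tags in both libraries. A region in the body of IGF2R, the receptor that clears insulin-like growth factor 2, had 64 tags with lactate and 78 without, a ratio of 0.972 (0.687 to 1.37) and a relative ratio of 0.500. The region at FIZ1 and ZNF524 had 53 tags with lactate and 62 without, a relative ratio of 0.533. That at HNRNPUL2 and TTC9C had 66 with lactate and 75 without, a relative ratio of 0.536. A region 102337 bp from the start of TMEM30B had 45 with lactate and 53 without, a relative ratio of 0.543, and that at PRPF38B, a splicing factor gene, 55 with lactate and 62 without, a relative ratio of 0.553. In all 5 the interval of the ratio per total tags spanned 1, while the interval of the relative ratio lay below 1. The 5 were picked for the lowest relative ratios, which shifts those intervals downward, so they are no separate support.

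Gene starts were the most frequent location of broad regions. A protein-coding gene start lay within 1 kb of 374 of the 654 (57.2%, 53.3 to 61.0), of 50.5% of the next narrower merged regions and of 12% of all merged regions. The start of a long non-coding RNA gene lay within 1 kb of 120 (18.4%), against 13.9% of the next narrower merged regions and 3.61% of all. For genes without a listed start either annotated end was accepted; with listed starts only, 326 broad regions (49.9%) remained. Exons and introns were not told apart. Of the 280 broad regions away from protein-coding starts, 32 lay at snRNA or tRNA genes and 31 at the start of a long non-coding RNA gene, which left 217.

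Among 342 broad regions with a listed start inside, 127 (37.1%) held starts on both strands and 133 (38.9%) the starts of at least 2 genes. In the next narrower merged regions the share with both strands was 31.8%. In 180 the listed starts inside belonged to a single protein-coding gene. Where that gene had several starts inside, the most upstream one was used, which places DNA around later starts on the downstream side. These 180 extended a median of 824 bp upstream and 928.5 bp downstream of that start, and the downstream arm was the longer in 94 (52.2%). Measured from it, the merged region reached about as far into the gene as away from it. The highest summit, however, lay upstream of the start in 120 of the 180 regions with lactate and 114 without. It was within 200 bp of the start in 77 (42.8%) with lactate and 70 (38.9%) without.

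Summits around these starts had a recurrent arrangement. The 100 bp just upstream of the start held 77 lactate and 68 untreated summits, and the 100 bp just inside the gene 46 lactate and 43 untreated ones. The next 100 bp, from 100 to 200 bp inside the gene, held 10 lactate and 20 untreated summits, and the following 100 bp 32 lactate and 38 untreated ones. From 400 to 500 bp inside the gene there were 23 lactate and 24 untreated summits, so the untreated dip was shallow. Of the highest summits, 2 lactate and 3 untreated ones lay from 100 to 200 bp inside, against 37 lactate and 31 untreated ones in the 100 bp upstream of the start. The first nucleosome of a transcribed gene is known to sit in about that stretch. Summits under 200 bp apart were also seldom listed (2.37% of lactate and 2.38% of untreated gaps). The part of either in the dip was not tested.

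**Figure D4:**
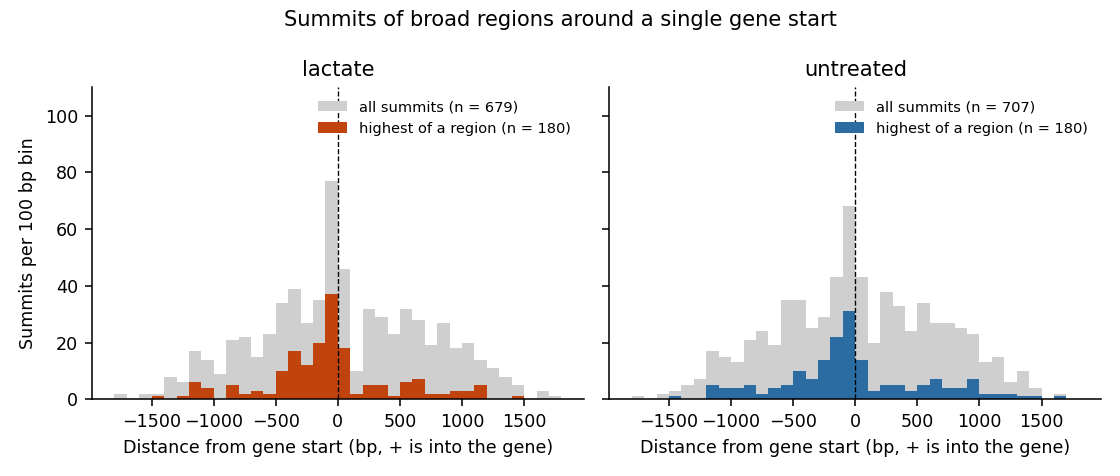
Summits per 100 bp bin (vertical) by distance from the gene start in bp (horizontal, positive into the gene) in 180 broad regions that hold the start of a single gene, for the lactate library (left) and the untreated library (right); grey bars are all summits and coloured bars the highest summit of each region. Distances are from the most upstream listed start where a gene had several inside. Both libraries peak just upstream of the start, with 77 lactate and 68 untreated summits. They drop to 10 lactate and 20 untreated summits between 100 and 200 bp inside the gene.

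The small nuclear RNA genes had the highest share of broad regions of any gene class examined with more than 2 regions. Of 145 snRNA genes in the annotation used, 39 overlapped an open region, in 38 merged regions. Of these 38 regions, 23 (60.5%, 43.4 to 76.0) were broad, against 0.503% of all merged regions and 2.96% of the 12631 shared regions at protein-coding starts. They held 24 genes, since RNU4-1 and RNU4-2 share a region, and 2 of the 23 also lay at a protein-coding start. They were broad in both lists in 18 of 23 (78.3%, 56.3 to 92.5) and in the lactate list alone in 5, whereas 174 of the other 631 broad regions (27.6%, 24.1 to 31.2) were broad in both. Many snRNA genes are near-identical copies, and the names of the authors' alignment files point to uniquely mapped tags, so tags within the copies are uncertain while the flanks are less so.

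By family, U1 snRNA, which recognises the start of an intron, had broad regions at all 11 of its genes with an open region, of 13 annotated. Genes with RNVU1 symbols were counted as U1. The U1 widths were 1531 to 2021 bp with lactate and 1170 to 2027 bp without. U5, which holds the exons during splicing, had broad regions at 5 of 5 genes, at 1564 to 2241 bp with lactate and 1540 to 2162 bp without. U2, which pairs with the branch point, had them at 2 of 3 genes. Both annotated U4 genes lay in a single region next to SIRT4, a mitochondrial sirtuin gene. That region (chr12:120290560-120293243) was 2673 bp wide with lactate, the widest of that list, and 2610 bp without. It had 7 summits and a height of 133 tags with lactate, and 6 summits and 91 tags without. RNU11 and RNU4ATAC, RNAs of the minor spliceosome that removes a rare class of introns, were broad as well, RNU11 at 1692 bp with lactate and 1558 bp without and RNU4ATAC at 1899 bp with lactate and 1801 bp without. The remaining 2 were unnamed snRNA genes, LOC124904122 and LOC124904613.

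Heights at these regions ran from 67 to 251 tags (median 163) with lactate and from 51 to 142 (median 104) without. The tallest was at RNU5E-1 on chromosome 1, with 251 tags and a width of 1768 bp with lactate, and 142 tags and 2093 bp without. The ratio had a median of 1.83 (1.41 to 2.38) and the relative ratio a median of 0.911, near that of all broad regions. The highest summit lay a median of 260 bp from the gene with lactate and 259.5 bp without, and within 500 bp of it for 22 of the 24 genes with lactate and 21 without. The open stretch was lopsided around the gene, with a median of 1377 bp on the longer side and 395 bp on the shorter, and the longer side was at least 2 times the shorter in 20 of 23. The strand of the snRNA genes is not in the table used, so the direction of the longer side was not assigned.

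**Figure D5:**
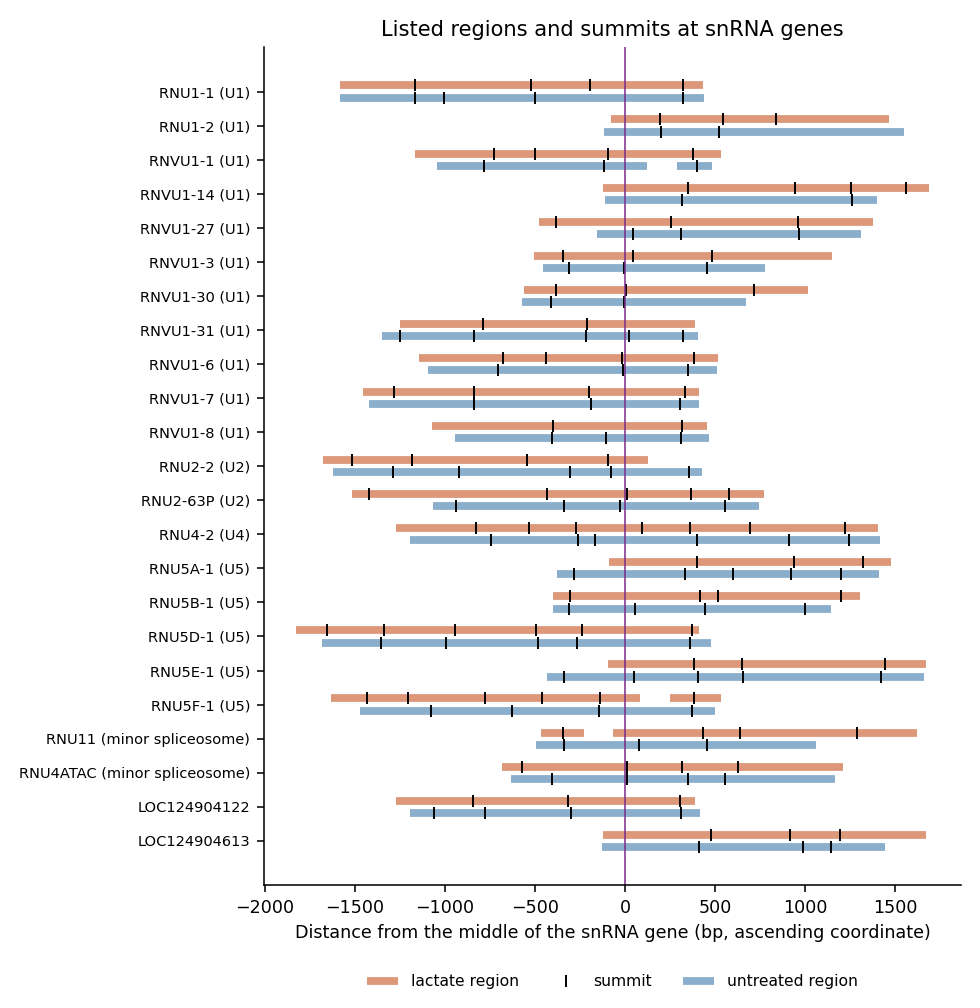
Listed regions (bars) and their summits (ticks) in the lactate library (orange, upper bar of each pair) and the untreated library (blue, lower bar) at the 23 snRNA gene regions that are broad, by distance in bp from the middle of the gene (vertical line) in ascending coordinate. In 20 of the 23 the stretch open in either library is at least 2 times as long on 1 side of the gene as on the other, and the ends of the bars differ between the libraries at several genes, RNU11 among them.

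The snRNA genes were also grouped by the polymerase known to transcribe their family, a grouping made after the values had been seen. Families were read from gene symbols, with RNVU1 genes and RNU2-63P included, and genes without such a symbol were left out. Of those left out, LOC124904122 and LOC124904613 lay in broad regions and the rest with an open region did not. Among that rest, LOC124904138 had the tallest summit of any snRNA gene, 772 tags with lactate and 440 without. Its region was 595 bp with lactate and 700 bp without. Of 24 named genes of RNA polymerase II families with an open region (27 are annotated), 22 lay in broad regions. The exceptions were RNU12, a minor spliceosome gene with regions of 1338 bp with lactate and 1112 bp without, and RNU7-1, whose RNA helps to process histone messages, with regions of 1449 bp with lactate and 1490 bp without. None of the 6 genes transcribed by RNA polymerase III with an open region (RNU6-1, RNU6-2, RNU6-8, RNU6-9, RNU6ATAC and RN7SK, of 7 annotated) was broad. Outside the snRNA class, however, the polymerase III genes RPPH1 and RMRP both lay in broad regions, as did some tRNA genes. Regions at the 6 polymerase III snRNA genes were 611 to 860 bp wide with lactate and 614 to 1443 bp without. Their median heights were 73 tags with lactate and 60 without, against 160 with lactate and 104 without for the polymerase II genes. The median ratio was 1.36 in the polymerase III group and 1.83 in the polymerase II group, and the median relative ratio 0.703 in the polymerase III group and 0.911 in the polymerase II group. At polymerase III genes the highest summit lay inside the gene itself for 2 of 6 with lactate and 6 of 6 without, and at polymerase II genes for 3 of 24 with lactate and 4 of 24 without.

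At transfer RNA genes, which polymerase III also transcribes, 16 of 262 regions were broad (6.11%, 3.53 to 9.73). Of these, 5 were broad in both lists, 3 with lactate alone and 8 in untreated cells alone. Their ratio had a median of 1.55 (1.20 to 1.98) and their relative ratio a median of 0.790. The widest was the ANG and RNASE4 locus, where 2 tRNA genes lie beside genes of secreted ribonucleases (chr14:20682329-20684647). It was in 2 pieces of at most 1458 bp with lactate and 2262 bp wide without, at 307 tags with lactate and 254 without. Broad regions were also found at 7 of 151 regions with microRNA genes (4.64%), 1 of 40 with snoRNA genes and 0 of 4 with ribosomal RNA genes.

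The RNAs of 2 ribonucleoprotein enzymes lay in broad regions as well. RPPH1, the RNA of RNase P, which trims the front of tRNAs, shares a region with the start of PARP2, a DNA repair gene (chr14:20342244-20343833). This was the tallest broad region in the lactate library, at 618 tags with lactate and 302 without, a ratio of 2.43 (2.11 to 2.79) and a relative ratio of 1.21, and it was 1172 bp wide with lactate and 1590 bp without. RMRP, the RNA of RNase MRP, lay in a region at CCDC107 that was 1528 bp with lactate and 1598 bp without. Its heights were 176 tags with lactate and 82 without, a ratio of 2.54 (1.95 to 3.35) and a relative ratio of 1.27.

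Among the widest regions at the starts or ends of protein-coding genes, the broad region at CDC42BPG, a kinase gene that acts with the small GTPase CDC42, led the untreated list (chr11:64842105-64844871). It lay at an annotated end of the gene without a listed strand. The region was 2735 bp in untreated cells and in 2 pieces with lactate, the wider of 1698 bp, with 6 summits and 169 tags with lactate and 7 summits and 123 tags without. At ABTB2 (chr11:34357052-34359568) the region was whole in both libraries, 2418 bp and 369 tags with lactate and 2511 bp and 269 tags without. At GSDME, whose product forms pores in a lytic form of cell death, the untreated region of 2399 bp (chr7:24755617-24758032) was in 3 pieces of at most 1306 bp with lactate, and the heights were 77 tags with lactate and 61 without. SLC22A4, which encodes a carnitine and ergothioneine carrier, had 2 pieces of at most 1666 bp and 87 tags with lactate, and 1 region of 2320 bp and 59 tags without. The GPR137 region was in 2 pieces of at most 1523 bp with lactate and 2258 bp wide without.

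The reverse was seen at ESRRA and CATSPERZ, where the region was 2223 bp with lactate and in 2 pieces of at most 1320 bp without, at 139 tags with lactate and 109 without. ESRRA encodes a nuclear receptor that drives genes of mitochondrial metabolism. NFE2L2, the master regulator of the antioxidant response, had the lowest lactate height of the widest 20, at 43 tags (chr2:177263443-177265600). It had 5 summits over 1948 bp with lactate, and 7 summits of up to 36 tags over 2152 bp without, and its ratio was 1.42 (0.888 to 2.27). ARMC5, with 5 lactate and 7 untreated summits, was in 2 pieces of at most 1246 bp with lactate and 1983 bp wide without.

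Away from gene starts and ends, the widest region of the lactate list that broke up in untreated cells lay on chromosome 18 (chr18:109160-111524), 2365 bp with lactate and 976 bp at most in 2 pieces without. Its heights were 96 tags in each library, a ratio of 1.19 (0.884 to 1.59) and a relative ratio of 0.591, and it was the single broad region of that chromosome. Its local background was high, at 27.7 tags with lactate and 33.2 without. Shared regions of chromosome 18 had medians of 1.54 with lactate and 1.66 without. Its fold enrichment was 3.38 with lactate and 2.84 without. The source of that background was not tested. A region 15420 bp from the start of SOCS3, a feedback inhibitor of cytokine signalling, was 2197 bp with lactate and in 2 pieces of at most 1285 bp without. Its heights were 74 tags with lactate and 37 without, a ratio of 2.37 (1.58 to 3.62). A region inside MCFD2, 24211 bp from its start, was 1489 bp and 62 tags with lactate and 2306 bp and 29 tags without, a ratio of 2.53 (1.61 to 4.08). The nearest named gene is given for location only.

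Other broad regions of the widest 20 lay inside C1QTNF6, 9409 bp from its start (1885 bp with lactate and 2309 bp without), and outside genes, 47060 bp from the start of FMN1 (at most 997 bp with lactate and 2285 bp without). One inside GSE1, 87775 bp from its start, and one inside F12, 1823 bp from an annotated end of PFN3, were 2126 and 1288 bp wide with lactate, and 1428 and 2129 bp without, at the widest listed region. The region next to RNU2-63P, nearest to RGPD2, was 2291 bp with lactate and 1813 bp without, and that at RNU5D-1, 8242 bp from the start of KIF2C, 2241 bp with lactate and 2162 bp without. One began 98 bp past the end of EGR1, an immediate early transcription factor gene, at 2125 bp and 111 tags with lactate and 1844 bp and 82 tags without. The region nearest to TUBD1 began 266 bp past the end of VMP1 and 1184 bp past MIR21, a microRNA gene often raised in carcinomas. It was 2159 bp wide with 161 tags with lactate and 1927 bp wide with 91 tags without, a ratio of 2.1 (1.61 to 2.74).

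Some further broad regions were picked for description after their values had been seen. One lay inside NEAT1, the long non-coding RNA that builds paraspeckles, at 2080 bp and 195 tags with lactate and 1756 bp and 121 tags without. One began 27 bp past MALAT1, at 2063 bp and 291 tags with lactate and 1983 bp and 201 tags without. One in the body of EGFR, the epidermal growth factor receptor gene, reached 391 tags with lactate and 199 without, a ratio of 2.33 (1.96 to 2.78), and was at most 825 bp wide with lactate and 1544 bp without. A region 19163 bp from KRT19, a keratin of simple and stratified epithelia, was 2084 bp wide with 202 tags with lactate and 2049 bp wide with 126 tags without. Near SDC1, an epithelial heparan sulfate proteoglycan gene, a region had 244 tags with lactate and 106 without, a ratio of 2.73. Regions on the histone clusters of chromosome 6 included those at H3C1 and H4C1, H2AC6 and H2BC4, H1-2, and H2AC12 and H2BC12. At H3C1 and H4C1 the region was whole with lactate (1722 bp) and in 2 pieces without, and at H1-2 it was in 2 pieces with lactate and whole without (1590 bp).

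Broad regions were unevenly spread over the genome. Chromosome 1 held 92 of them (14.1% of the broad regions), against 9.40% of all merged regions, of which 16 lay at snRNA genes. Chromosome 11 held 66 (10.1%), against 5.07% of all merged regions, so that 1.0% of its regions were broad, close to chromosome 16 (1.01%) and chromosome 19 (0.926%). On chromosome 11 between 62 and 68 Mb, a window picked after seeing the counts, 30 of 584 merged regions (5.14%) were broad. The local background of shared regions there was a median of 9.22 tags with lactate and 8.62 without, against 2.22 with lactate and 2.44 without over the genome. More copies of the segment and more open DNA both raise that background; their parts were not tested.

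Within that window lay the densest cluster, with 5 broad regions between chr11:64240134 and chr11:64318743, at FKBP2, GPR137, BAD, ESRRA with CATSPERZ, and PRDX5 with TRMT112. BAD encodes a cell death protein and PRDX5 a peroxiredoxin that removes peroxides. Their highest lactate summits were 270, 268, 166, 139 and 210 tags and their highest untreated summits 174, 187, 102, 109 and 155 tags. Another 8 places held 3 broad regions within 100 kb, at MUS81, FIBP and FOSL1, at SYT12 and RHOD, at TRADD and ELMO3, at NFAT5, at TMEM107 and CTC1, at MYO19, GGNBP2 and MRM1, at TEX14, and outside genes nearest to CCNL1. The 3 near CCNL1, a cyclin gene linked to splicing, were among the tallest, with 451, 268 and 385 tags with lactate and 245, 208 and 260 without.

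Of 19974 protein-coding genes, 466 (2.33%) had a broad region within 1 kb of a start, or 3.82% of the 12204 genes open at the start in both libraries. Gene lists of pathways linked to lactate and to squamous carcinoma were set beside this share; the lists are short, and nothing particular to a list is read from its count. None of 20 glycolysis enzymes, 15 proposed lactylation writers and erasers and 17 hypoxia response genes had one, although 18, 14 and 15 of them were open in both libraries. In the lactate transport and sensing list, 1 of 11 did. That was SLC16A1, the gene of the lactate carrier MCT1, at 1759 bp and 65 tags with lactate and 1603 bp and 49 tags without, a ratio of 1.57 (1.07 to 2.33) and a relative ratio of 0.827. The region lay at an annotated end of SLC16A1 whose strand is not in the table used.

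In the oxidative stress list 2 of 11 genes did, NFE2L2 and TXN, the gene of thioredoxin, with TXN at 1555 bp and 90 tags with lactate and 1563 bp and 66 tags without. In the heat shock list 2 of 12 did, the chaperone genes HSP90AB1 (1468 bp with lactate and 1691 bp without) and HSPA1A (1510 bp with lactate and 1458 bp without). PPIA, a housekeeping gene of a protein-folding enzyme, was 1608 bp and 120 tags with lactate and 1597 bp and 94 tags without. In the immediate early list 3 of 25 did. They were IER3 with 170 tags with lactate and 70 without, a ratio of 2.88 (2.17 to 3.86), ZFP36L2 with 92 tags with lactate and 53 without, and BTG2 with 58 tags with lactate and 34 without. The AP-1 list had FOSL1 alone among 10 genes, at 1724 bp with lactate and 1148 bp without and 258 tags with lactate and 153 without. The regions at FOSL1, IER3, ZFP36L2 and PKP3 also lay at an annotated end without a listed strand.

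Among 18 squamous transcription factors, ELF3 was in 2 pieces with lactate, the wider of 823 bp, and whole without (1590 bp), at 184 tags with lactate and 81 without. Among 26 keratin and junction genes, PKP3, a desmosome plakophilin, was 1564 bp wide with 141 tags with lactate and 1624 bp wide with 81 tags without. KRT8 was 1537 bp wide with 143 tags with lactate and 1451 bp wide with 76 tags without. SKIL, an inhibitor of SMAD signalling, was the only gene of 18 in the TGF-beta list, at 1898 bp and 126 tags with lactate and 1253 bp and 55 tags without, a ratio of 2.71 (1.96 to 3.80). CDKN2A, the gene of the cell cycle inhibitors p16 and p14ARF, was the only one of 17 in the G1 list. Its region was 1984 bp and 34 tags with lactate and 1559 bp and 39 tags without, a ratio of 1.03 (0.633 to 1.68) and a relative ratio of 0.575.

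No broad region lay at a start in the lists of ERBB receptors and ligands (11 genes), Notch and Wnt signalling (18), the Hippo pathway (12), NF-kappaB and chemokines (19), interferon response (14), transcription factors of epithelial-mesenchymal transition (10) or HOX genes (39). Cell type markers had none either. As a check of the label, the starts of 8 of 10 squamous epithelium markers were open in both libraries, against 2 of 6 fibroblast, 3 of 5 leukocyte, 0 of 4 endothelium and 2 of 4 neuron markers. Over all protein-coding genes the share was 61.1%, so short lists such as these are a weak check.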

How the data were processed

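ATAC-seq peak lists of 2 CAL27 libraries (1 lactate, 1 untreated) were used. The tools fastp 0.20.0, BWA 0.7.12 and MACS2 2.1.0 and the build hg38 are listed in the submitters' processing notes. The authors ran MACS 2.2.7.1, per the file headers, on each library alone at a q-value of 0.05, with no control, 100 bp of upstream shift, tags extended to 200 bp, remaining duplicates kept and summits called; alignment names point to uniquely mapped, deduplicated tags. How duplicates were removed is not given in the sources used here. The deposited pileup is a signal, the unscaled number of extended tags over a summit, out of 15401276 (lactate) and 18248413 (untreated) tags. The deposited fold enrichment is a ratio of pileup to local background with 1 added to each, used only to describe regions and to recover that background.

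Regions overlapping by 1 bp were merged (python 3.11.15, pandas 2.3.3, scipy 1.17.1). Pericentromeric intervals (chromosome 1 from 120 to 145 Mb, 5 from 45 to 51, 16 from 33 to 47, 17 from 21 to 28) were left out. The highest summit of each library was divided by total tags, and relative ratios used 20 bins of summed summit tags. Intervals are exact binomial for shares and exact conditional Poisson for ratios. Gene positions came from RefSeq tables of GRCh38.p14, the same build; 15812 of 19974 protein-coding genes (79.2%) had a listed start. All 368 gene list entries matched. The code was tested on simulated data. The regions, lists and tests were chosen with earlier results of these data known. Named genes are those of the 20 widest regions, the 10 with most summits, the 5 highest and 5 lowest relative ratios, up to 4 per gene list and the places with most regions within 100 kb; the rule for regions absent from 1 list named none. Others are marked as chosen later. One list member is not reported here.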

Additional observations from a re-analysis of the deposited data

Results flagged for a closer look

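The pericentromeric intervals left out of the comparisons also held regions of at least 1500 bp, 6 in the lactate list and 5 in the untreated list. They are listed here because they lie outside the main measurement; short tags place poorly in repeats of these intervals, and no comparison was made of them.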

How the results depend on the processing

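No paired analysis was possible because there is a single library of each kind, and no replicate could be left out. Lowering the width by 250 bp gave 2194 merged regions, from 1410 lactate and 1602 untreated regions; 99.2% had at least 2 summits, 19.9% of the lactate and 24.0% of the untreated ones were split in the other list, and 2.83% had a relative ratio of at least 1.5. Raising it to 2000 bp gave 50 merged regions, from 23 lactate and 34 untreated regions, with 52.0% at a gene start, 34.8% and 52.9% split and 0% at a relative ratio of at least 1.5. Requiring a recomputed −log10 p of at least 7 moved the split shares to 19.1% and 27.8%. The median ratio was 1.68 with the mean over summits and 0.993 when scaled to the summed pileup of shared regions, which turned its direction. Without setting regions against others of like height, 74.6% had a ratio of at least 1.5. Alternatives added after seeing the data gave 49.9% at a gene start with listed starts only, and 6.58% at a relative ratio of at most 1/1.5 when the narrow single-summit regions were kept. The other 48 recomputed values, among them those without regions at snRNA and tRNA genes, stayed within their counting error or 1.5 times the count. Depth limits the single regions: the counting interval of the ratio per total tags lay above 1 in 513 broad regions and spanned 1 in 141. The same count was not made over all shared regions.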
